A study of Mus musculus with 28 samples.

Results

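Esr1 was followed through all 19 RNA libraries of a study of mouse alveolar type II (AT2) cells. It is 1 gene of the 23478 gene rows in each deposited count table. It was chosen because its reads had been seen to separate libraries with the inducible Cre driver from most of those without it. Its own levels are therefore a description and carry no test, and its relation to Sftpc among libraries with high Esr1 is given with one below. They are set beside the labelled genotype of each library and beside the reads of the floxed genes Stk3, Stk4 and Yap1, which make 3 genes for comparison.

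Lung epithelial cells were sorted for EPCAM at postnatal day 14 after recombination at postnatal day 3, and the labels call them AT2 cells. The Yap active group (6 RNA libraries) is Stk3flox/flox Stk4flox/flox with SftpcCreert2, and its control (4 libraries) carries the same floxed alleles without the driver. The Yap deleted group (5 libraries) is Yapflox/flox with SftpcCreert2, and its control (4 libraries) is Yapflox/flox alone. All 4 groups thus carry floxed alleles, no group carries the driver without them, and both driver groups depend on the Sftpc promoter. What the inducing agent was, whether the controls received it, and which animals each library was made from are not given in the sources used here. Any p-value therefore measures the spread between these samples.

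Esr1 encodes estrogen receptor alpha, a nuclear receptor that rests in a chaperone complex, binds estrogen through its hormone-binding domain and then activates or represses genes through DNA elements and coregulators. CreERT2 is Cre recombinase joined to a mutated hormone-binding domain of the same receptor, which keeps Cre out of the nucleus until a ligand such as tamoxifen binds. Sftpc encodes surfactant protein C, a defining product of AT2 cells, and its promoter is widely used to place CreERT2 in them. The counts are sums over a gene with no position within it, so reads from the endogenous gene and reads from a receptor part of the fusion cannot be told apart.

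Esr1 lies on chromosome 10 from 4611989 to 5005633 on the plus strand (RefSeq, GRCm38.p6, the mm10 assembly), a span of 393.6 kb. RefSeq gives it 2 annotated starts in the promoter table, 98.2 kb apart. The 250 bases before each start are shown because the chromatin data below are read at these places. The first is chr10:4611739-4611988 and the second chr10:4709908-4710157, both written 5′ to 3′ on the plus strand, and capitals mark the TEAD core GGAATG, a motif of the factors through which Yap acts.
Esr1 start 1: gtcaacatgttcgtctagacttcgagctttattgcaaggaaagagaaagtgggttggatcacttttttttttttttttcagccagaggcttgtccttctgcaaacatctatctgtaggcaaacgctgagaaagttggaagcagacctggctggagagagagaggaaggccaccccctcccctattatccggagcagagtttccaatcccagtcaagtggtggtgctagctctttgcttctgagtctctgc
Esr1 start 2: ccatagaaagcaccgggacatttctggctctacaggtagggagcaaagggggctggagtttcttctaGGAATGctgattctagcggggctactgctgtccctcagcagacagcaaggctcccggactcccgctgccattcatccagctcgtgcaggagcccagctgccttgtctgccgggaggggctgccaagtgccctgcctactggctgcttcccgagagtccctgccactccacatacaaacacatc
The first stretch held 0 matches to GGAATG on either strand and the second held 1, and 12.6% of 32851 promoter stretches of this length held it. Neither held TATAAA (12.4% of all) or the full estrogen response element, GGTCA and TGACC with any 3 bases between them (0.0639% of all). GC content was 47.6% and 59.6%. A match describes letters only.

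Library depth was even, with totals of 35.0 to 43.5 M reads for the Yap active line and its controls and of 31.9 to 42.9 M for the other line. Values are counts per 1000000 (CPM) on TMM-scaled library sizes, each table scaled by itself. The AT2 markers were abundant in every library, with all 15 above 0 and a summed level of 35582 to 167779 CPM over the 4 groups. Along the first principal component (59.8% and 61.3% of variance over the 2000 most variable genes) libraries fell into a larger and a smaller set. These sets followed the labels in part. The smaller set held the library labelled active 1 with active controls 1 to 3, and in the other table deleted controls 1 and 2. Every Yap deleted library and active libraries 2 to 6 were in the larger set. Library set and driver label therefore cannot be fully told apart.

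Esr1 was high in nearly all libraries labelled with the driver and low in most controls, with little in between. Yap deleted libraries 1 to 5 held 531, 387, 253, 242 and 271 CPM. All 5 were high. Their controls 1 to 4 held 1.85, 87.1, 3.91 and 0.952 CPM, so the library labelled deleted control 2 stood far above the other 3, yet below every deleted library. The labelled groups did not overlap. Of the 15818 genes tested 2.64% lay higher in all Yap deleted libraries than in any control and 1.25% lower, and since Esr1 was chosen on this contrast nothing is read from it. In bulk RNA, a difference in the number of cells with a transcript and in the amount per cell cannot be told apart.

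In the Yap active table Esr1 separated libraries as sharply, but not along the labels. The library labelled active 1 held 1.97 CPM, and active libraries 2 to 6 held 244, 211, 335, 276 and 269 CPM. The controls held 2.06, 160.0, 3.20 and 0.964 CPM. The library labelled active 1 was thus within the range of controls 1, 3 and 4, while the library labelled active control 2 lay closer to active libraries 2 to 6 than to the other controls. The labelled groups overlapped, as they did for all but 0.465% (higher) and 0.478% (lower) of the 15685 genes tested.

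**Figure D1:**
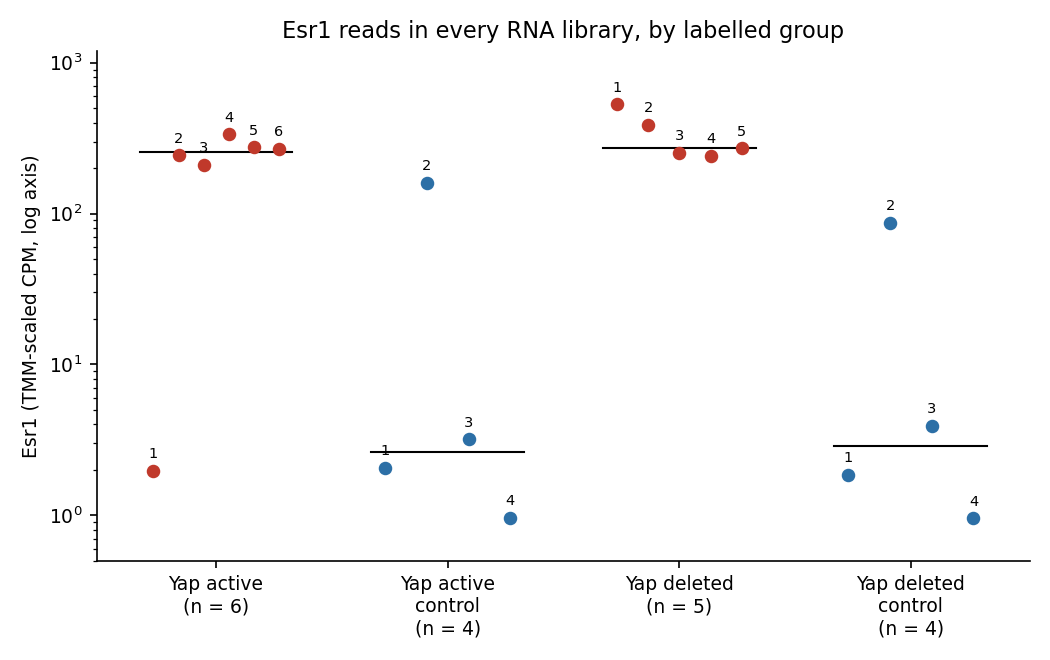
Esr1 in TMM-scaled CPM (log axis) for each RNA library, by labelled group. Points are libraries with their number, red with the driver by label and blue without it, and the lines are group medians. The libraries labelled active 1 (1.97 CPM), active control 2 (160.0 CPM) and deleted control 2 (87.1 CPM) lie apart from their groups.

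The gap between high and low libraries was wide in both tables. In the Yap active table no library lay between 3.20 and 160.0 CPM, a 50.0-fold gap, with 6 libraries above and 4 below. In the Yap deleted table none lay between 3.91 and 87.1 CPM, a 22.3-fold gap, with 6 above and 3 below. The numbers of reads behind these values ran from 3040 to 21761 in the high libraries and from 30 to 139 in the low ones.

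A low level was not the same level in every library. On unscaled totals (plain CPM), active control 4 held 0.876 CPM (35 reads, exact Clopper-Pearson 95% interval 0.610 to 1.22) and active control 3 held 3.61 (3.04 to 4.26). Active control 1 held 2.39 (1.93 to 2.93) and the library labelled active 1 held 2.14 (1.72 to 2.62). Deleted control 4 held 0.903 (0.609 to 1.29), deleted control 1 held 1.98 (1.54 to 2.51) and deleted control 3 held 3.88 (3.26 to 4.58). Active control 4 and deleted control 4 were therefore lowest beyond counting error, which is all these intervals cover, and Esr1 was above 0 in each library.

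By group mean the order was Yap deleted (337 ± 123 CPM, SD, n = 5), Yap active (223 ± 116, n = 6), Yap active control (41.6 ± 79.0, n = 4) and Yap deleted control (23.4 ± 42.4, n = 4). The medians were 271, 256, 2.63 and 2.88 CPM. The order across tables rests on separate scaling, and neighbours in it overlapped: deleted with active, active with its control, and the 2 control groups with each other. For both controls the SD was larger than the mean, through 1 library each.

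The fitted log2 fold change of Esr1, given as a description, was 2.42 ± 1.51 (SE) for Yap active against control and 3.84 ± 1.30 for Yap deleted, on a background of −0.01 and 0.01 for the median gene. By size of rise Esr1 ranked 2 of 15685 and 3 of 15818 genes, and since it was chosen on this contrast nothing is read from the rank. Without the library labelled active control 2 the active value was 6.74, and without that library and the one labelled active 1 it was 6.99. Without the library labelled deleted control 2 the deleted value was 7.23. These libraries were picked by their own Esr1, so larger values were fixed by that choice.

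Xist, the RNA of the inactive X chromosome, did not follow Esr1. Among Yap active libraries with high Esr1, Xist lay at 249, 313 and 481 CPM in libraries 2, 3 and 6 and at 2.30 and 1.15 CPM in libraries 4 and 5. In the Yap deleted group Esr1 was high with Xist at 304 and 387 CPM (libraries 1 and 3) and at 1.28 to 2.61 CPM (libraries 2, 4 and 5). Of the 7 libraries with little Esr1, Xist was high in the library labelled active 1, in active control 4 and in deleted control 3.

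The floxed genes were then read in the order of Esr1. Yap1 encodes the transcriptional coactivator Yap, and the products of Stk3 and Stk4 are the kinases at the head of the Hippo pathway, by which Yap is held in check. Reads counted over a whole gene show a floxed deletion only in part, and these genes were named together with Esr1, so no test is given.

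Yap1 in the Yap deleted table was low in each library in which Esr1 was high, the library labelled deleted control 2 included. The 3 libraries with the least Esr1, deleted controls 4, 1 and 3, held 187, 215 and 168 CPM of Yap1. At 87.1 CPM of Esr1, the library labelled deleted control 2 held 119 CPM of Yap1. Deleted libraries 4, 3, 5, 2 and 1, in rising order of Esr1, held 84.4, 102, 95.4, 142 and 78.3 CPM. Read by Esr1, the 6 high libraries (78.3 to 142 CPM of Yap1) and the 3 low ones (168 to 215 CPM) did not overlap. The share of all genes that lie apart under this split is not given, so nothing particular to Yap1 is read from it. Read by label, they did, because the library labelled deleted control 2 held less Yap1 than deleted library 2. Among the 6 high libraries Yap1 kept no order with Esr1.

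Stk4 in the Yap active table was lower in the libraries with high Esr1, with 1 crossing. Active libraries 3, 2, 6, 5 and 4, in rising order of Esr1, held 78.5, 88.1, 88.9, 81.8 and 94.1 CPM of Stk4. Active controls 4, 1 and 3 held 120.0, 103 and 112 CPM, and the library labelled active 1, with little Esr1, held 125 CPM, the highest of the table. Beside its 160.0 CPM of Esr1, the library labelled active control 2 held 106 CPM of Stk4. It thus lay above control 1 and above all 5 active libraries with high Esr1.

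Stk3 followed the library sets more closely than Esr1. The 6 libraries of the larger set held 30.6 to 35.4 CPM of Stk3, active control 4 among them at 34.0 CPM with the least Esr1 of the table. The 4 libraries of the smaller set held 49.5 to 54.6 CPM, and the library labelled active control 2 was among them at 50.2 CPM although its Esr1 was high. The sets were drawn from the most variable genes of these same data. How large a share of all genes lies apart between the sets is not given, so nothing particular to Stk3 is read from this. Yap1, which is not floxed in this line, lay at 150 to 205 CPM in the 6 libraries with high Esr1 and at 177 to 211 CPM in the other 4. In the Yap deleted table, where neither kinase gene is floxed, Stk3 (40.5 and 37.5 CPM) and Stk4 (141 and 127 CPM) were highest in deleted controls 1 and 2, of which only the library labelled control 2 had high Esr1. The part that library set played in the kinase values was not tested.

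**Figure D2:**
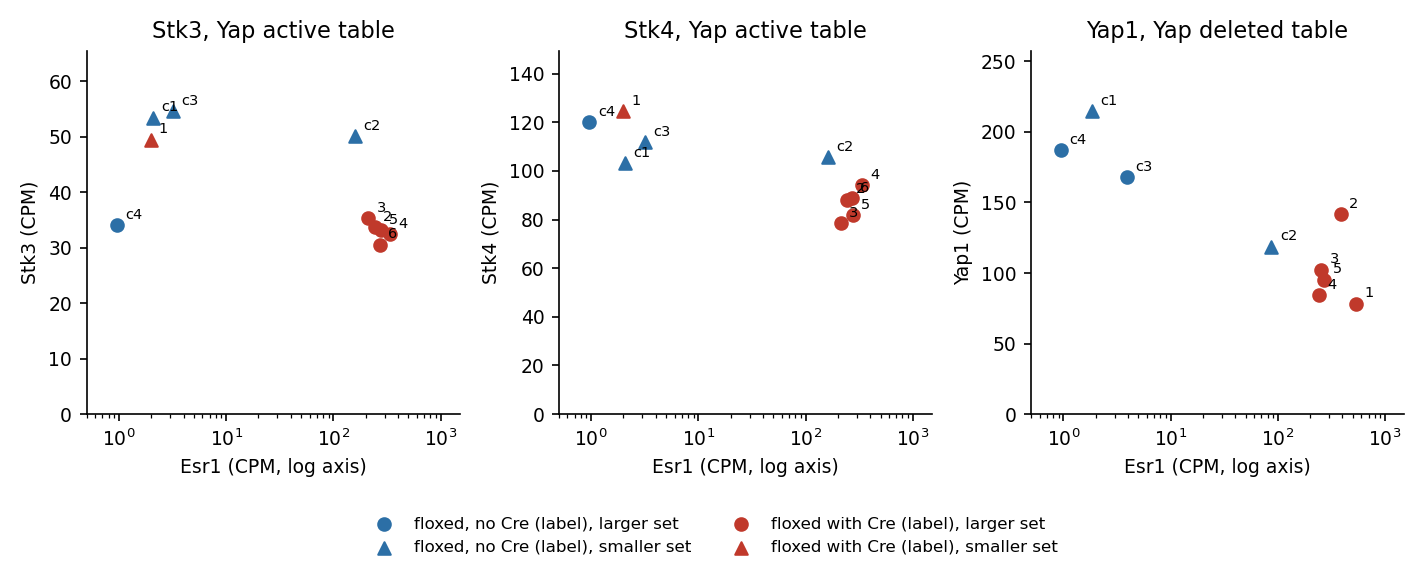
Stk3 and Stk4 (Yap active table) and Yap1 (Yap deleted table) in CPM against Esr1 in CPM (log axis), 1 point per RNA library, c marking controls by label. Red is with and blue without the driver by label, and circles and triangles are the larger and smaller library set. Yap1 is at 142 CPM or less wherever Esr1 is high, while Stk3 at high Esr1 spans 30.6 to 50.2 CPM.

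Fibroblast and smooth muscle markers, 12 genes, also differed between libraries. Their summed level was 3678 to 23729 CPM in Yap active libraries and 8530 to 16963 CPM in their controls, with the library labelled active 1 at 23729 CPM and the one labelled active control 2 at 10180 CPM. In the Yap deleted group it was 4787 to 18706 CPM and in the controls 4840 to 24334 CPM, the highest being the library labelled deleted control 2. Endothelial markers summed to 42.6 to 469 CPM in all libraries but deleted controls 1 and 2, which held 2782 and 2347 CPM. In the Yap active table the 6 libraries with high Esr1 held fibroblast sums of 3678 to 11753 CPM and endothelial sums of 155 CPM or less. Of its 4 libraries with little Esr1, active control 4 lay within those ranges (8530 and 108 CPM), and the other 3 held the highest sums of both lists, 16110 to 23729 and 238 to 469 CPM. Both the lowest fibroblast sum of the Yap deleted table (4787 CPM) and the highest came with high Esr1. The part of other cell types in Esr1 was not tested.

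Sftpc, whose promoter drives CreERT2 here, was not used in choosing Esr1. It lay at 11239, 37339, 35600, 40336, 40501 and 56759 CPM in active libraries 1 to 6 and at 17542, 11639, 18180 and 83336 CPM in their controls. The highest Sftpc of that table, in active control 4, came with the least Esr1. In the Yap deleted group Sftpc was 2854, 2064, 28125, 24307 and 25910 CPM, against 10329, 7580, 30026 and 45818 CPM in the controls. Deleted libraries 1 and 2, with the most Esr1 of all libraries, thus held the least Sftpc of all.

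Across the 6 libraries with high Esr1 in each table, log2 Esr1 and log2 Sftpc gave no relation that passed the test. In the Yap active table Pearson's r was 0.825 (exact permutation p = 0.0444, adjusted over the 2 relations p = 0.0889) and Spearman's rho 0.771 (exact permutation p = 0.103). Without the 2 libraries farthest from the median of Sftpc r was 0.904 over 4 libraries (exact permutation p = 0.167). In the Yap deleted table r was −0.354 (exact permutation p = 0.553, adjusted 0.553) and rho −0.429 (exact permutation p = 0.419). Without the 2 farthest libraries, which were deleted libraries 1 and 2, r turned to 0.994 over the other 4 (exact permutation p = 0.125), so its sign rested on them. All tests were two-sided. For either line, 5 of the 6 libraries were of the larger set, so no value within a set rests on 6 libraries. The 6 were marked out by Esr1 itself and 1 of them is labelled a control, so the permuted pairings are not fully interchangeable. In the Yap active table that library, active control 2, held the least of both genes (160.0 CPM of Esr1 and 11639 CPM of Sftpc). For these reasons the test cannot decide whether Esr1 and Sftpc are related, and nothing is read from its outcome.

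The low Sftpc of deleted libraries 1 and 2 was not matched by another surfactant gene. Sftpb, which encodes surfactant protein B, lay at 15172 and 13707 CPM in them and at 12690 to 15363 CPM in deleted libraries 3 to 5. The ratio of Sftpc to Sftpb, chosen after the values were seen, was 0.188 and 0.151 in deleted libraries 1 and 2, 1.62 to 2.22 in deleted libraries 3 to 5 and 1.51 to 3.49 in the controls. In the Yap active table it was 1.89 to 4.09 in active libraries, and controls 1 to 4 gave 2.93, 1.04, 2.44 and 5.54, lowest in the library labelled active control 2.

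Set against Sftpb, high Esr1 was more even across libraries. Per 1000 CPM of Sftpb, active libraries 2 to 6 held 13.7 to 19.4 CPM of Esr1 and the library labelled active control 2 held 14.4. Deleted libraries 3 to 5 held 16.1 to 19.9, and the library labelled deleted control 2 held 17.3. Both libraries labelled as controls thus lay within the range of libraries labelled with the driver on this scale, which was chosen after the values were seen. Deleted libraries 1 and 2 held 35.0 and 28.2, and the 7 libraries with little Esr1 held 0.0641 to 0.454.

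Division by other AT2 genes put these 2 libraries at or below the lowest of the driver libraries set beside them. Per 1000 CPM of Slc34a2, a phosphate transporter of AT2 cells, the library labelled active control 2 held 10.9 against 16.4 to 21.1 in active libraries 2 to 6, and the library labelled deleted control 2 held 17.7 against 17.7 to 20.7 in deleted libraries 3 to 5. Per 1000 CPM of the 14 AT2 markers other than Sftpc, these 2 libraries held 2.36 and 3.11. Active libraries 2 to 6 held 2.42 to 3.26 on that scale and deleted libraries 3 to 5 held 3.40 to 4.05. Deleted libraries 1 and 2 were highest on every such scale, at 42.0 and 35.1 per 1000 CPM of Slc34a2 and 7.56 and 6.90 per 1000 CPM of the 14 markers.

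**Figure D3:**
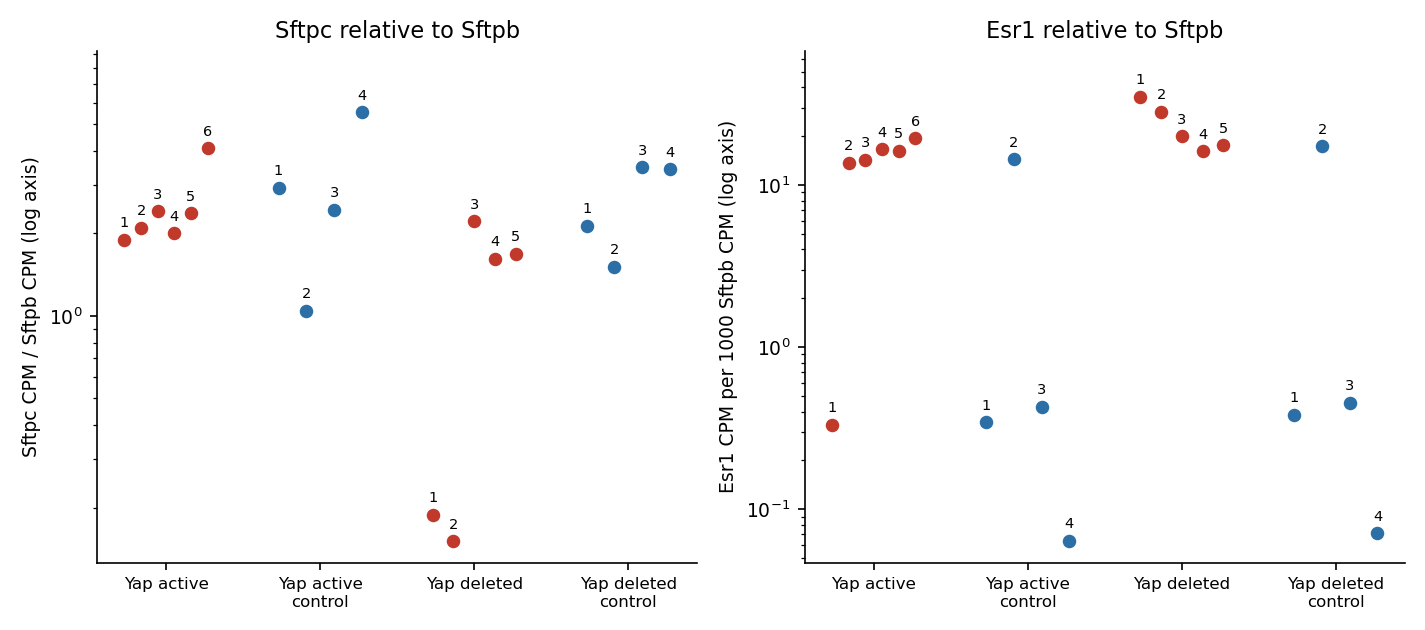
Left, CPM of Sftpc over CPM of Sftpb, and right, CPM of Esr1 per 1000 CPM of Sftpb (log axes), by labelled group with 1 numbered point per RNA library, red with and blue without the driver by label. Deleted libraries 1 and 2 are lowest on the left (0.188 and 0.151) and highest on the right (35.0 and 28.2).

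The genes whose pattern was most like that of Esr1 were taken over 15453 genes by the lower of 2 Pearson correlations of log2 CPM, over the 10 libraries of one table and the 9 of the other. The first 10 were Cdkn1a, Gm16197, 9030617O03Rik, Zmat3, Ccng1, Phlda3, Gdf15, Slc19a2, Gm11974 and Bmp1, and 22 genes passed 0.8 in both tables. Libraries of a table share depth, library set and genotype, so the values describe likeness only, and the genes were selected for it. By Spearman's rho 6 of the 10 were again among the first 10, and on plain CPM all 10 were.

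Cdkn1a, which encodes the cyclin-dependent kinase inhibitor p21, came first (r = 0.97 and 0.96). It lay at 60.4, 635, 313, 576, 541 and 481 CPM in active libraries 1 to 6 and at 55.9, 300.0, 49.1 and 68.7 CPM in the controls. In deleted libraries 1 to 5 it lay at 807, 629, 459, 484 and 346 CPM and in the controls at 50.6, 242, 99.1 and 94.9 CPM. Each of the 3 libraries whose Esr1 stood apart from its group stood outside the other values of its group for Cdkn1a too. The selection of Cdkn1a for likeness to Esr1 favours this, so it is no separate evidence. For both genes the library labelled deleted control 2 still lay below every deleted library. Deleted libraries 1 and 2 held the most of both within their table.

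Gdf15, a secreted cytokine of the TGF-beta superfamily that rises under cell stress, lay at 4.03, 70.3, 33.2, 63.1, 61.5 and 45.3 CPM in active libraries 1 to 6 and at 3.86, 34.0, 2.44 and 4.57 CPM in the controls. In the other table it lay at 135, 84.9, 57.2, 82.7 and 39.5 CPM in deleted libraries and at 1.14, 20.8, 6.002 and 6.89 CPM in the controls. The libraries labelled active control 2 and deleted control 2 were again the highest of their groups.

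Of the other members of this set, Ccng1, encoding cyclin G1, lay at 110 to 203 CPM where Esr1 was high and at 58.7 to 67.5 CPM where it was low in the Yap active table, and at 99.5 to 261 against 50.5 to 60.8 CPM in the other. Phlda3, a small pleckstrin-homology protein that restrains Akt, lay at 65.2 to 136 against 17.8 to 52.6 CPM and at 83.1 to 197 against 43.3 to 55.3 CPM. Zmat3, an RNA-binding zinc finger protein, lay at 60.2 to 113 against 36.3 to 39.0 CPM and at 70.4 to 121 against 31.7 to 47.9 CPM. Bmp1, a procollagen-processing metalloproteinase, lay at 525 to 1037 against 335 to 414 CPM and at 461 to 1414 against 208 to 265 CPM. Slc19a2, a thiamine transporter, lay at 13.99 to 20.8 against 8.16 to 10.2 CPM and at 12.5 to 25.4 against 8.92 to 10.4 CPM.

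Gm16197 (2.49 to 6.23 against 0.275 to 0.577 CPM, then 2.06 to 8.74 against 0.698 to 1.42 CPM), 9030617O03Rik (20.1 to 36.7 against 4.57 to 8.43 CPM, then 12.8 to 54.4 against 6.68 to 8.49 CPM) and Gm11974 (2.85 to 4.69 against 1.41 to 1.96 CPM, then 3.42 to 6.01 against 2.04 to 2.41 CPM) complete the 10. All 10 thus kept libraries with high and low Esr1 apart in both tables, as their selection favours. The most opposite genes were D830031N03Rik, C030046E11Rik, Jmjd4, Slc35a5 and Il1r1, the last a receptor for interleukin-1, with r between −0.86 and −0.70. Their ranges overlapped in at least 1 table.

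**Figure D4:**
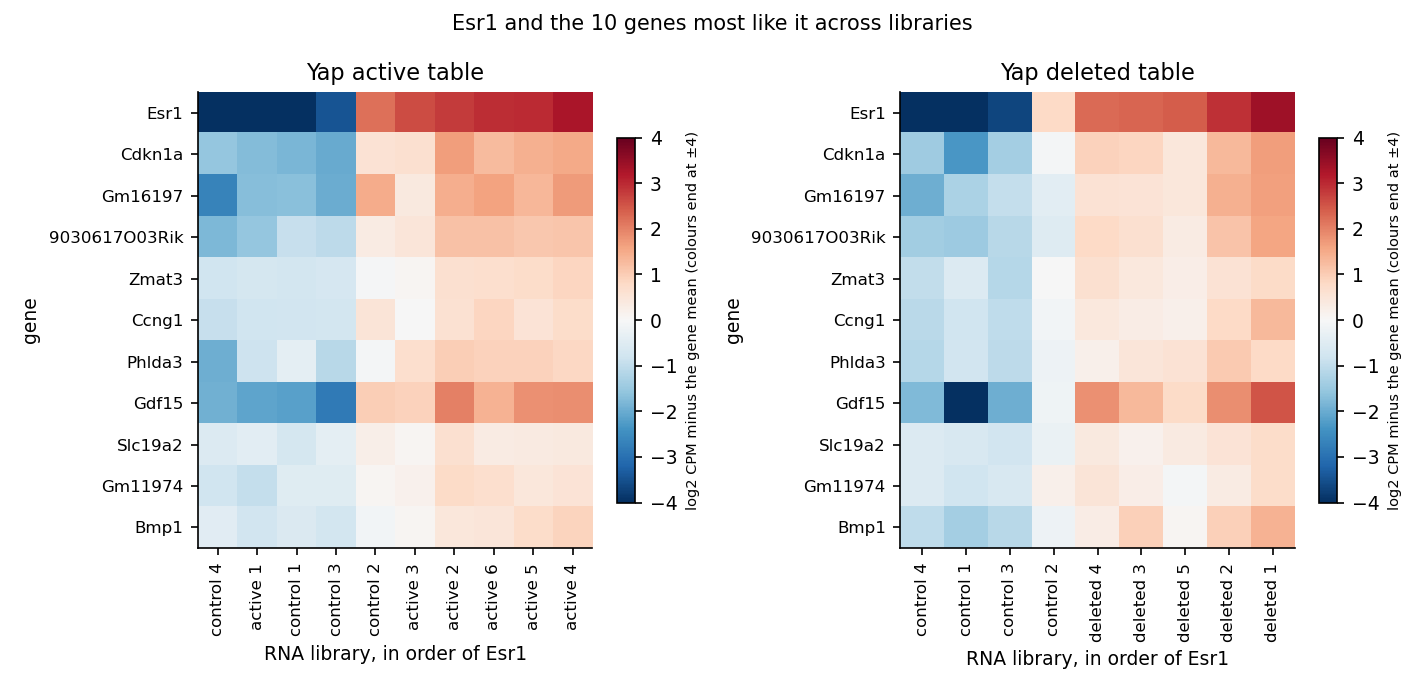
Log2 CPM minus the mean of the gene in its table, for Esr1 and the 10 genes most like it (rows), in RNA libraries ordered by Esr1 from left to right (columns). Blue is below and red above the mean, with colours ending at 4 either way. The library labelled active 1 sits with the controls, and the libraries labelled control 2 sit next to the red side.

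Receptors related to Esr1 gave no call by edgeR. Of the steroid receptor family of 10, 9 genes passed the filter on low counts in the Yap active table (2 higher and 7 lower, median log2 fold change −0.32) and 8 in the Yap deleted table (4 higher and 4 lower, median 0.02), Esr1 included. EdgeR called 0 of them in either table (adjusted p 0.366 to 0.833 and 0.247 to 0.603), beside 0.0% of all genes in the Yap active and 0.00632% in the Yap deleted comparison. At an unadjusted edgeR p under 0.05 stood 1 and 2 of them, beside 12.6% and 15.3% of all genes. Esr1 itself was among those of the Yap deleted table. Since Esr1 was chosen on this contrast, nothing is read from its part in these counts and medians. Leaving Esr1 aside, DESeq2 called 0 in the Yap active table and 1, Esrra, in the other, where it called 5.01% of all genes against 0.0745% in the Yap active table. Those DESeq2 calls of the Yap deleted table include 11 of 12 endothelial and 7 of 12 leukocyte markers, all lower. The median of 0.02 rests on few genes: it was −0.43 without deleted control 3, −0.53 without deleted control 4 and −0.34 with no filter on low counts.

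Esrra, an orphan receptor related to Esr1 that controls mitochondrial genes, lay at 52.5 to 60.3 CPM in Yap deleted libraries, above the 35.8 to 45.3 CPM of the control libraries (log2 fold change 0.41 ± 0.10 SE, edgeR adjusted p = 0.247, DESeq2 adjusted p = 0.0301). These groups did not overlap (2.64% of genes in that direction). Read by Esr1, the 6 high libraries of that table held 45.3 to 60.3 CPM of Esrra and the 3 low ones 35.8 to 44.9 CPM, so the ranges nearly met. The share of all genes apart under this split is not given, so nothing particular to Esrra is read from it. In the Yap active table it lay at 30.3 to 57.0 against 29.6 to 45.8 CPM (log2 fold change 0.44 ± 0.19 SE, edgeR adjusted p = 0.366), and the groups overlapped.

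Esr2, encoding estrogen receptor beta, lay at 0.233 to 0.865 CPM in Yap active libraries and 0.496 to 0.995 CPM in their controls, and at 0.513 to 1.35 against 0.917 to 1.99 CPM in the other table. Gper1, a membrane receptor that responds to estrogen, lay at 3.64 to 21.1 against 9.61 to 22.8 CPM and at 5.27 to 15.5 against 8.28 to 21.4 CPM. Nr3c1, the glucocorticoid receptor, lay at 153 to 261 against 165 to 265 CPM and at 152 to 211 against 168 to 320 CPM. Nr3c2, the mineralocorticoid receptor, lay at 7.20 to 13.3 against 9.39 to 15.7 CPM and at 12.7 to 24.8 against 7.05 to 19.4 CPM. None of these 4 separated the labelled groups in either table.

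Esrrg, another orphan receptor, lay at 1.02 to 5.85 against 0.799 to 5.69 CPM and at 3.19 to 6.42 against 0.430 to 3.90 CPM. Pgr, the progesterone receptor and a textbook target of Esr1, stayed at 0.0618 to 0.824 CPM in Yap active libraries and 0.172 to 0.293 CPM in Yap deleted libraries, with 0.157 to 0.944 and 0.0635 to 3.11 CPM in the controls, and in the Yap deleted table it did not pass the filter. Esrrb, which passed it in neither table, stayed at 0.355 CPM or less in every library.

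Genes that respond to estrogen receptor in other tissues gave no call by edgeR either. Of 20 such genes 19 were tested in the Yap active table (10 higher, 9 lower, median log2 fold change 0.10) and 18 in the Yap deleted table (10 higher, 8 lower, median 0.04). EdgeR called 0 in both, beside 0.0% and 0.00632% of all genes. At an unadjusted edgeR p under 0.05 stood 2 in each, beside 12.6% and 15.3% of all genes. DESeq2 called 0 in the first, where it called 0.0745% of all genes. It called 2, Greb1 and Sgk1, both lower, in the second, where it called 5.01% of all genes. Greb1, a coregulator that Esr1 itself induces in breast cells, lay at 0.819 to 3.03 CPM in Yap deleted libraries and 0.635 to 21.9 CPM in their controls. The most abundant of the list were Muc1 (a membrane mucin, median 2181 CPM in Yap active libraries and 1167 in their controls, 1690 and 1048 in the other table), C3 of complement (504 and 612, 661 and 482) and Ctsd, a lysosomal protease (457 and 348, 516 and 458), and for all 3 the groups overlapped.

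Ccnd1 and Pdzk1 alone of this list separated the groups, both higher in Yap active libraries, against the background of 0.465% of genes. Ccnd1, encoding cyclin D1, lay at 244 to 435 against 201 to 236 CPM (log2 fold change 0.71 ± 0.17 SE, edgeR adjusted p = 0.366). It did not follow Esr1, since it lay at 244 CPM in the library labelled active 1 and at 202 CPM in the lowest library with high Esr1. Pdzk1, a scaffold protein, lay at 7.47 to 8.67 against 6.39 to 7.42 CPM.

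The coregulators that Esr1 works with gave no call by edgeR. Of 15 coregulators 9 were higher and 6 lower in the Yap active table (median log2 fold change 0.01), and 6 higher and 9 lower in the Yap deleted table (median −0.03). EdgeR called 0 in both, beside 0.0% and 0.00632% of all genes. At an unadjusted edgeR p under 0.05 stood 0 and 3 (12.6% and 15.3% of all genes). DESeq2 called 0 and 1 (Gata3, lower), beside 0.0745% and 5.01% of all genes. Among the most abundant were Kmt2d, a histone methyltransferase (median 301 CPM in Yap active libraries and 270.3 in controls, 267 and 397 in the other table), and the corepressor Ncor1 (237 and 246, 219 and 243). Phb2, a repressor of estrogen receptor activity, was the single one to separate the labelled groups, in the Yap deleted table (96.2 to 112 against 60.0 to 93.3 CPM), where 2.64% of all genes did so in that direction.

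Receptor chaperones, which hold the unliganded receptor and CreERT2, had 11 of 15 genes higher in each table (median log2 fold change 0.40 and 0.29). The medians depended on the libraries: that of the Yap active table was 0.15 without active library 2, and in the larger library set they were 0.12 and 0.09. EdgeR called 0 of them in both, beside 0.0% and 0.00632% of all genes, and DESeq2 called 0, beside 0.0745% and 5.01%. At an unadjusted edgeR p under 0.05 stood 4 and 3 of the 15, beside 12.6% and 15.3% of all genes. Hsp90ab1, the constitutive form of the chaperone HSP90, had medians of 1260 CPM in Yap active libraries and 803 in controls, then 1013 and 854. Hspa8 (552 and 274, then 447 and 349) and the co-chaperone Fkbp4 (480 and 245, then 376 and 266) stood next. Of these only Hspa8 separated the groups, in the Yap deleted table (402 to 557 against 269 to 400 CPM, beside 2.64% of all genes).

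Among genes of estrogen and tamoxifen metabolism, 14 of 15 were matched and 10 tested in each table, with 4 higher and 6 lower (median log2 fold change −0.17) and then 6 higher and 4 lower (median 0.08). EdgeR called 0 in both, beside 0.0% and 0.00632% of all genes, and DESeq2 called 0, beside 0.0745% and 5.01%. At an unadjusted edgeR p under 0.05 stood 2 and 1 of the 10, beside 12.6% and 15.3% of all genes. Hsd17b4, of the 17-beta-hydroxysteroid dehydrogenases, had medians of 85.1 CPM in Yap active libraries and 74.1 in controls, then 81.4 and 65.7. Hsd17b12, of the same enzymes, had 62.8 and 53.1, then 49.2 and 42.2, and for both the groups overlapped.

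The genes next to Esr1 did not separate the labelled groups, as most genes did not. The 5 nearest tested genes on the side of lower coordinates are Ccdc170, Rmnd1, Zbtb2, Akap12 and Mthfd1l, and on the other side Syne1, Myct1, Fbxo5, Mtrf1l and Rgs17, at 14.6 to 820.0 kb from Esr1. In all 10 the labelled groups overlapped in both tables and edgeR called 0 (lowest adjusted p 0.366 and 0.247). Over all genes edgeR called 0.0% in the Yap active and 0.00632% in the Yap deleted table. Groups lay apart for 0.465% (higher) and 0.478% (lower) of all genes, then for 2.64% and 1.25%. Most sets of 10 genes would give the same, so nothing is read from it about the neighbours. Syne1, the closest at 14.6 kb, lay at 17.8 to 71.7 CPM in Yap active libraries and 18.7 to 83.9 CPM in controls, and at 23.3 to 85.4 against 30.8 to 135 CPM in the other table. Ccdc170, at 47.5 kb on the other side, lay at 7.60 to 18.2 against 4.21 to 20.4 CPM and at 17.6 to 33.4 against 3.15 to 20.0 CPM.

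Chromatin at Esr1 was read in the authors' lists from ATAC-seq, which marks accessible DNA. Their region lists named Esr1 for 0 of 6017 regions opened and 0 of 1392 closed in the Yap active line, and for 0 of 532 opened and 0 of 676 closed in the Yap deleted line. The lists name 4782, 1280, 512 and 604 genes, beside 23478 gene rows in a count table. Most genes are thus unnamed in each list, and nothing is read from the absence of Esr1. By label there were 3 Yap active and 3 control ATAC libraries, but 2 Yap deleted and 1 control. The nearest listed regions lay 223 kb (opened, annotated to Zbtb2) and 323 kb (closed, Akap12) from the gene in the Yap active line, and 57.2 kb (opened, Ccdc170) and 206 kb (closed, Zbtb2) in the Yap deleted line. The region nearest of all was chromosome 10, 4553376 to 4554752.

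The 4 peak lists used here cover the Yap active line, and list numbers are not library numbers. Within Esr1, Yap active lists 1 and 2 held 11 and 5 peaks and the control lists 42 and 3. These lists are of very different lengths (61739, 53714, 345109 and 28418 peaks), and the highest −log10 q of the authors for a peak in the gene was 0.281, 0.00553, 0.0247 and 0.141. Values over 1 were rare in every list, with 782, 65, 0 and 31 peaks, and the highest of control list 1 was 0.985. No peak lay on either promoter window shown above, in any list, while 30.2%, 15.0%, 5.59% and 3.73% of 32851 promoter windows held one. From the first start the nearest peak was 8.27, 121, 8.22 and 6.10 kb away, and from the second 20.0, 124, 9.04 and 66.0 kb.

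**Figure D5:**
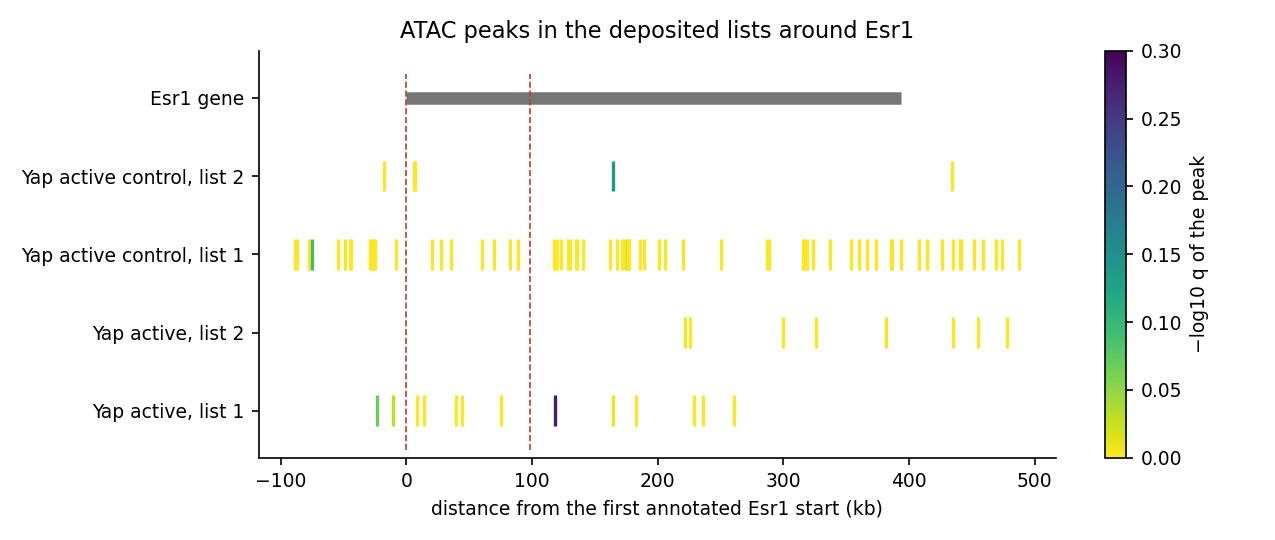
Peaks of the 4 deposited ATAC lists (rows) by distance in kb from the first annotated start of Esr1, each mark a peak coloured by its −log10 q. The grey bar is the gene and the dashed lines its 2 annotated starts. No peak meets a dashed line, and every −log10 q within the gene is 0.281 or less.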

How the data were processed

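Gene tables were deposited as raw read counts per gene (23478 rows for each line), and both hold whole numbers. Trim Galore, Bowtie2, Cufflinks, DESeq and HOMER and build mm10 are named, without versions or steps, per the submitters' processing notes, and the counting program, its strand setting and the annotation are not given in the sources used here. Without strand, Esr1 reads cannot be told from antisense reads. Deposited region lists carry a score of unstated scale from HOMER annotatePeaks.pl, per the file headers. Deposited peak lists have MACS broad-peak columns, with the authors' fold enrichment and −log10 q, and neither cutoff nor pooling is given.

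Groups came from the labels, and every library kept its labelled group. Each table was scaled by TMM, filtered by filterByExpr and fitted with edgeR 4.0.16 in R 4.3.3 (robust quasi-likelihood test, two-sided), with Benjamini-Hochberg adjustment over all genes tested and a threshold of 0.05. CPM is the count over the TMM-scaled library size, and correlations used log2 CPM with a prior count of 1. The group differences of Esr1, Stk3, Stk4 and Yap1 are given as descriptions, although these genes stay in the fits over all genes and in the counts of their lists. Members and lists were chosen with earlier results of these data known. Genes are named by rule: Esr1, Stk3, Stk4, Yap1 and Sftpc, the 10 most like and 5 most opposite genes, 5 neighbours on either side, the steroid receptor family, and the 3 most abundant genes of the other lists. A few genes under this rule are not reported here. Sftpb, Slc34a2, Xist and list genes that separated groups or that DESeq2 called were named after their values were seen. Of list genes, Sts and Cfap126 were not matched. Sequences and positions are from RefSeq (GRCm38.p6). Peaks were counted at an overlap of at least 1 bp.

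The fits were run on simulated counts with a fixed dispersion and no library sets. That run therefore does not show how the fits behave on these libraries. Dates stood in place of 27 gene names, as a spreadsheet makes them, and 2 names were duplicated. No column of values was left unused (0). All library pairs of a group differed beyond counting noise (chi-square per gene at least 50.6 and 84.2). Alternatives were RLE and total-count scaling, no count filter, DESeq2 1.42.0, a replicate block, leaving out each library, Spearman's rho, plain CPM, stronger peaks and a 50 kb margin. Fits without the libraries whose Esr1 went against the label, and on the larger library set alone, were chosen after seeing the data.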

Additional observations from a re-analysis of the deposited data

Results flagged for a closer look

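By Dixon's ratio 12 single values stood apart from their group, among 60 groups of values looked at. Chance gives about 1 in 20. Most of the 12, however, are of Esr1 or of genes chosen for their likeness to it. Those of Stk3 and Stk4 are of floxed genes named together with Esr1. The count is therefore a description and is not read against chance. For Esr1 they were the library labelled active 1 at 1.97 CPM (the other 5 at 211 to 335), the library labelled active control 2 at 160.0 CPM (the others at 0.964 to 3.20) and the library labelled deleted control 2 at 87.1 CPM (the others at 0.952 to 3.91).

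Stk3 set the library labelled active 1 apart as well, at 49.5 CPM (the others at 30.6 to 35.4), as did Stk4 at 125 CPM (78.5 to 94.1) and Phlda3 at 38.4 CPM (110 to 136). The library labelled active control 2 stood apart for Cdkn1a at 300.0 CPM (49.1 to 68.7), Gm16197 at 5.31 CPM (0.275 to 0.577), Zmat3 at 60.2 CPM (36.3 to 39.0), Ccng1 at 158 CPM (58.7 to 67.5) and Gdf15 at 34.0 CPM (2.44 to 4.57). These genes were selected for their likeness to Esr1, so their ratios are not separate evidence. Active control 4 stood apart for Sftpc at 83336 CPM (11639 to 18180).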

How the results depend on the processing

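The Esr1 fold change kept its sign in every alternative run. Without single libraries it ran from 2.03 to 6.74 in the Yap active table and from 3.42 to 7.23 in the Yap deleted table, the upper ends without the library labelled control 2. It was 6.99 without active 1 and control 2, 8.12 (active) and 7.07 (deleted) in the larger library set, and 6.30 in the deleted table with a replicate block. Genes called numbered 0 in the active table but 11 by DESeq2, 13 without active 1 and control 2, 2 in the larger set and 0 to 2 without single libraries. In the deleted table they numbered 1 but 2 with total-count scaling, 0 with the replicate block, 871 by DESeq2 and 0 to 4 without single libraries. The causes were not tested. Same-numbered libraries did not deviate together in every pair (correlations 0.00389 to 0.519 and −0.253 to 0.438, 4 pairs each), so the numbers were not taken to pair samples, and 1 of 4 and 3 of 4 correlated best with their own number. The Sftpc relation of the deleted table turned to 0.994 without 2 libraries. By Spearman's rho 6 of the 10 most like genes were shared. Stronger peaks left 1, 3, 3 and 1 in Esr1, and a 50 kb margin gave 5 for control list 2. Signs turned for Sftpc (active: −0.03, −0.10 and −0.02 without controls 1, 2 or 3, up to 1.24 without control 4, and −0.97 in the larger set, deleted: −0.80 to 0.025, the latter without control 4). In the larger set they turned for Esrrg (1.53), Nr3c1 (0.042) and Nr3c2 (0.24) in the active table, where 1 control is left and is taken to vary like the other libraries, and for Stk3 (0.18), Nr3c1 (0.050) and Gper1 (0.033) in the deleted table. DESeq2 alone called Esrra (0.38) in the deleted table. List medians moved by less than the spread between libraries of a group in 375 of 390 cases, which does not exclude a turn of sign. In the Yap active table the steroid receptor median turned from −0.32 to 0.22 in the larger set. The leukocyte median of that table ran from −0.94 to 0.62 without single libraries.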
